A study of Mus musculus with 6 samples.

Results

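Glucose transport and glycolysis genes were examined in interscapular brown adipose tissue (iBAT) of control and *ob/ob* mice. The set holds 34 genes for glucose uptake, hexose phosphorylation, the glycolytic steps to pyruvate, lactate formation and export, glycogen turnover, and entry into the pentose phosphate pathway. It was drawn up by pathway and not by any measured value. These genes are 34 of the 20630 gene symbols with a value on the array, and 33 of them were among the 19011 genes that could be tested. All 6 samples came from male C57BL/6 mice labeled as 16 weeks old, 3 with the control genotype and 3 *ob/ob*, and each was hybridized to 1 Agilent single-dye whole-genome array. *ob/ob* mice lack functional leptin in every tissue, eat in excess and become obese, so the comparison is of a whole-body model and not of a change made in fat cells. The labels do not say whether a sample is 1 mouse or a pool, so the p values measure the spread between these samples only.

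Brown adipocytes burn fatty acids and glucose to make heat. Insulin moves the transporter GLUT4 (*Slc2a4*) to their surface, adrenergic stimulation in the cold also raises glucose uptake, and hexokinase then traps the sugar inside the cell as glucose-6-phosphate. From there, it is stored as glycogen, sent into the pentose phosphate pathway, or committed to glycolysis by phosphofructokinase, whose products are oxidized in mitochondria, exported as lactate, or turned into glycerol-3-phosphate for triglycerides.

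Signals are quantile normalized log2 intensities. A gene with several probes is represented by its brightest probe, and a fold change is *ob/ob* minus control on the log2 scale. Genes were tested with limma and are called higher or lower at an unadjusted p under 0.05 and a difference of at least 2-fold. The same thresholds were used throughout because no probe on the array passed an adjusted p under 0.05 (Benjamini-Hochberg over 35448 probes), whereas 1245 probes had an unadjusted p under 0.05. The methods' t-test also found 0 at the adjusted threshold.

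On each array, 83.5% to 89.9% of the spots lay well above background. Before normalization, the median signal was 108.2, 105.3, and 45.8 on the control arrays compared with 59.9, 80.0, and 27.5 on the *ob/ob* arrays, so control 3 was the dimmest control and *ob/ob* 3 the dimmest array by this measure. Of the 33 genes tested, 32 were well above background on all 6 arrays, and *Pfkfb4* was so on 4, 2 in each group. *Pfkfb2* reached that level on 1 array of each group and was not tested. Values are listed in the order of the sample numbers 1, 2, and 3. The mean signal over the 33 genes was 9.31, 9.20, and 7.97 on the control arrays compared with 7.99, 7.86, and 9.55 on the *ob/ob* arrays. Control 3 therefore lay with *ob/ob* 1 and *ob/ob* 2, and *ob/ob* 3 lay with control 1 and control 2. The parts of signal strength and of an exchange of these 2 labels in this split were not tested, and an exchange would change every difference given here. Over all probes tested, 7.92% had groups that did not overlap, in either direction. The second *Gapdh* probe, *Vegfa*, and *Zic1* were among them, with every *ob/ob* array below every control. They are named because of that pattern, so they do not test the labels. Control 1, control 3, and *ob/ob* 1 were read in the same scan, and each other array had its own.

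The tissue label was checked against 10 brown adipocyte markers. All 10 were measured, and their mean signal was 10.62, 10.08, and 7.55 on the control arrays compared with 7.04, 7.03, and 8.33 on the *ob/ob* arrays. *Ucp1*, the uncoupling protein that defines the cell, was above background on every array, with 13.05, 11.72, and 9.48 on the control arrays compared with 8.93, 9.12, and 10.03 on the *ob/ob* arrays. *Elovl3*, a fatty acid elongase of brown fat, was well above background on only 3 of 6 arrays. Brown adipocyte markers were thus present, with control 3 below the other controls.

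Promoter sequences are shown for *Pfkfb3*, *Gapdh*, *Hk2*, and *Gpi1*, whose brightest probes differed most, toward lower signal in *ob/ob*, once the arrays control 3 and *ob/ob* 3 were set aside, among the genes with a listed promoter. Each window runs from 250 bases before to 50 bases after an annotated start (RefSeq, GRCm38.p6), and capitals mark the letters ACGTG or, where they lie on the opposite strand, CACGT. The letters ACGTG are the core that hypoxia-inducible factors read, and they also lie inside CACGTG, the E-box read by MYC, USF, and ChREBP, so that every CACGTG is counted under both names.
*Pfkfb3*, first listed start, chr2:11553880-11554179, minus strand: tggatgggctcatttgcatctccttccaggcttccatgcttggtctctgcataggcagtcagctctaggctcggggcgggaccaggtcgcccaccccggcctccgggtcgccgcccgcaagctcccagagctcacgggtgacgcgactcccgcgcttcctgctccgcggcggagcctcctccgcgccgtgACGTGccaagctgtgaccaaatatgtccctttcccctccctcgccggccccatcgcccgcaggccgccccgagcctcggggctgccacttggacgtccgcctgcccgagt
*Pfkfb3*, second listed start, chr2:11502041-11502340, minus strand: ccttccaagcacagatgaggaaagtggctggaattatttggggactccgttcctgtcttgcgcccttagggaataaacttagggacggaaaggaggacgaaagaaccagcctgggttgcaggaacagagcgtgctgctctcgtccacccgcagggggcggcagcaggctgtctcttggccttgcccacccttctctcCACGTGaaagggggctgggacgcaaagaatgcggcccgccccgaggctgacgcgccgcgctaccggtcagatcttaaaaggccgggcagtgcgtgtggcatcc
*Gapdh*, chr6:125165724-125166023, minus strand: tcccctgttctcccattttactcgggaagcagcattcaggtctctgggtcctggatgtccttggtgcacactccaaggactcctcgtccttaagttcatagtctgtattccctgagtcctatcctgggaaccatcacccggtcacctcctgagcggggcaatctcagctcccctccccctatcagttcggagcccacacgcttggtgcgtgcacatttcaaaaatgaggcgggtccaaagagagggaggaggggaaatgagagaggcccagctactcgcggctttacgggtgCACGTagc
*Hk2*, chr6:82774405-82774704, minus strand: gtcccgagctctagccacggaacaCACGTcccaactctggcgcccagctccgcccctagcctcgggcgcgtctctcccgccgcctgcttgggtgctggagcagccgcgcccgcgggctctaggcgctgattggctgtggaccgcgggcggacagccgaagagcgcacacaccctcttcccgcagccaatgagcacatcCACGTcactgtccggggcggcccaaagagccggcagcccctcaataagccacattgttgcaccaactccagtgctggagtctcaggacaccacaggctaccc
*Gpi1*, chr7:34230287-34230586, minus strand: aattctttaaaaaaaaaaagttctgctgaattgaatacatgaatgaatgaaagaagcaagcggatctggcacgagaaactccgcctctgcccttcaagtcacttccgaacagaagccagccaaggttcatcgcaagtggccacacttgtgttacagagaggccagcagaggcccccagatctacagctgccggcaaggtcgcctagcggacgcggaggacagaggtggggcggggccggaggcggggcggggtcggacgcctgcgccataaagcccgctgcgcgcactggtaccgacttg

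*Pfkfb3* has 2 listed starts that lie 51839 bases apart on chromosome 2. In the first window, the only match begins at position −60 (counted from the start base), and in the second, a full CACGTG begins at −53. The match in *Gapdh* begins at 42, in transcribed sequence, whereas *Hk2* has matches at −226 and −52. *Gpi1* has no match, and its window holds GGGCGG, the GC box, 2 times.

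Promoter windows were listed for 32 of the 34 genes, 49 windows in all. ACGTG, searched on both strands, occurred in 25 of these 49 windows (51.0%) and in 19.6% of all 32851 windows in the table. For GCGTG, the other hypoxia-response core, the shares were 55.1% and 32.4%, and for CACGTG 10.2% and 7.15%. GGGCGG occurred in 53.1% of the windows of these genes and in 35.7% of all windows, and TATAAA in 4.08% and 13.6%. The median GC content was 60.0% in the windows of these genes and 52.7% over all windows, and the latter include those of noncoding genes, and the part of base composition in these shares was not tested. A match is a stretch of letters, and binding was not measured here.

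In *ob/ob* iBAT, 1 glycolytic gene was called lower and 1 higher of the 33 tested. *Eno1*, the ubiquitous enolase, was lower, and *Aldoc*, the aldolase best known from brain, was higher. Over all genes tested, 1.49% were called lower and 1.69% higher, so 1 of 33 (3.03%) in each direction is a single gene and near the background. An unadjusted p under 0.05 was found for these and for *Pfkl*, the liver-type phosphofructokinase subunit, which makes 3 of 33 genes (9.09%), against 3.72% of all genes. The adjusted p was 1.0 for each of the 3 (limma). Tissue pieces were measured, so fewer cells of a type and less RNA per cell cannot be told apart.

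The median log2 fold change over the 33 genes was −0.25, compared with −0.09 over all genes, and 20 of 33 (60.6%) had a negative value, compared with 57.1% of all genes. A difference of at least 2-fold in either direction was seen in 6 of 33 (18.2%), compared with 13.2% of all genes. The groups did not overlap for 2 of 33 genes (6.06%), against 7.95% of all genes. By these measures the glycolytic genes stood near the background of the array.

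**Figure D1:**
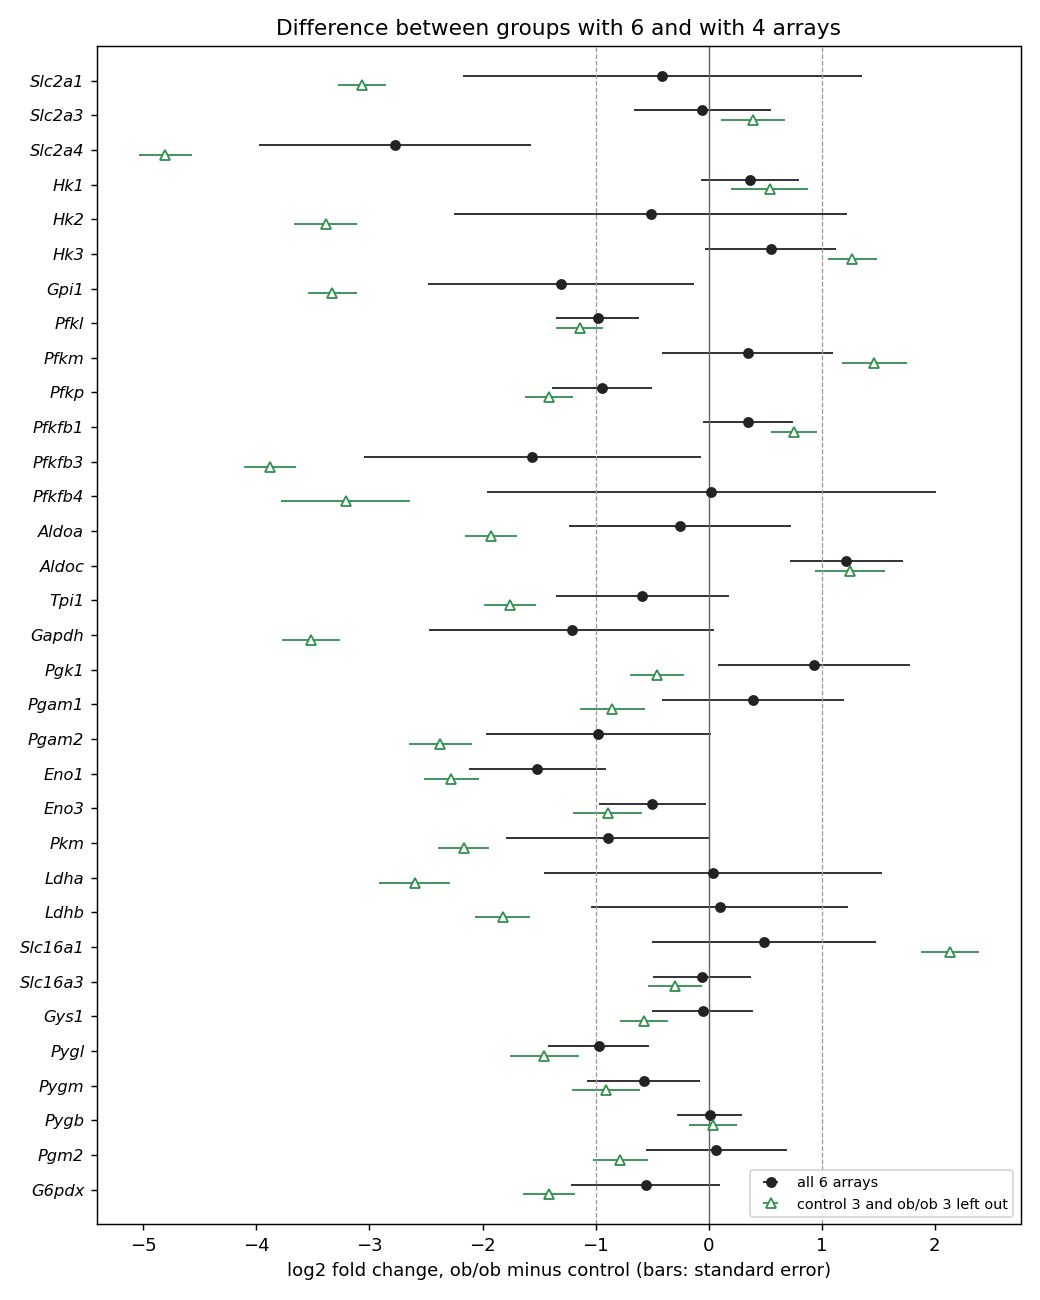
Log2 fold change (*ob/ob* minus control, x axis, log2 units) of the brightest probe of each of the 33 genes tested, ordered by role, with all 6 arrays and with control 3 and *ob/ob* 3 left out; bars are standard errors from limma. With all arrays the median is −0.25, and without control 3 and *ob/ob* 3 it is −1.41, where 25 of 33 values are negative.

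Within groups, these genes varied more than the genes of the array as a whole. The median SD within the controls was 1.15 log2 units for the 33 genes and 0.53 for all genes, and within the *ob/ob* samples it was 0.87 and 0.77. Control 3 was the lowest control for 22 of 33 genes (66.7%), compared with 38.8% of all genes. *ob/ob* 3 was the highest *ob/ob* sample for 26 of 33 (78.8%), compared with 41.5% of all genes, and 21 of 33 (63.6%) showed both patterns, compared with 34.5%. These shares are descriptions over genes measured on the same arrays and carry no test.

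Without control 3 and *ob/ob* 3, the median log2 fold change of the 33 genes was −1.41, whereas that of all genes was 0.06. Then 25 of 33 values were negative (75.8%, compared with 46.7% of all genes). These 2 arrays were left out because of their values in these data. The values and calls without them therefore describe how 2 controls and 2 *ob/ob* samples differed and are not a test. Within the shared scan, where *ob/ob* 1 can be set against control 1 and control 3, the median difference was −0.69, with 25 of 33 values negative, compared with −0.06 and 54.2% for all genes.

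**Figure D2:**
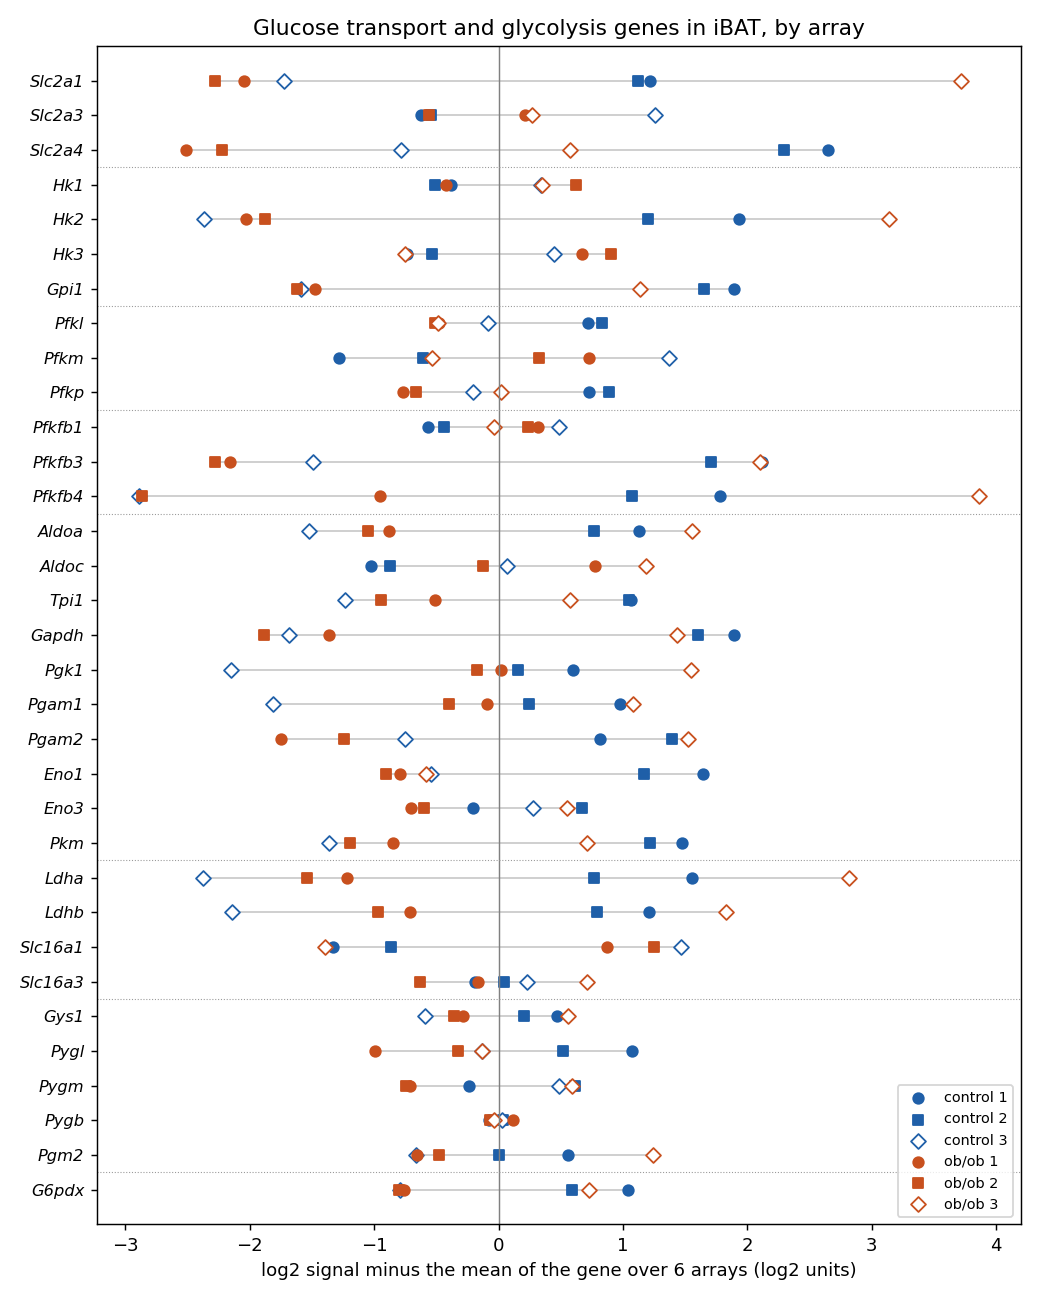
Quantile normalized log2 signal of each of the 33 genes tested on each of the 6 arrays (points), as the difference from the gene's own mean over the arrays (x axis, log2 units), with dotted lines between roles. For most genes control 1, control 2, and *ob/ob* 3 are on the high side and control 3, *ob/ob* 1, and *ob/ob* 2 on the low side. *Pfkm*, *Hk3*, *Slc16a1*, and *Pfkfb1* are among those that run the other way.

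Glucose uptake was represented by 3 transporters. *Slc2a4*, which encodes the insulin-responsive GLUT4, had a signal of 12.64, 12.29, and 9.21 on the control arrays compared with 7.48, 7.77, and 10.56 on the *ob/ob* arrays. The mean was 11.38 ± 1.89 (SD, n = 3) for controls and 8.60 ± 1.70 (SD, n = 3) for *ob/ob*. The log2 fold change of −2.78, with a standard error of 1.20 (limma unadjusted p = 0.0581), was the largest difference of the 33 genes. The groups overlapped, since *ob/ob* 3 lay above control 3, and the difference did not pass the threshold. It was −3.80 without control 3, −3.76 without *ob/ob* 3, −4.81 without both, and −3.45 within the shared scan.

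*Slc2a1* encodes GLUT1, the transporter of basal uptake. Its signal was 8.73, 8.64, and 5.79 on the control arrays compared with 5.47, 5.24, and 11.24 on the *ob/ob* arrays. *ob/ob* 3 was the highest array and the other *ob/ob* samples were the lowest, and the log2 fold change was −0.41 (standard error 1.76). It was −3.07 without control 3 and *ob/ob* 3 and ran from −2.15 to 0.62 as single arrays were left out, so its sign was not fixed. *Slc2a3*, which encodes the high-affinity transporter GLUT3, had a log2 fold change of −0.06 (standard error 0.60), with control 3 as its highest array.

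Hexokinases and the isomerase take glucose to fructose-6-phosphate. *Hk2*, the insulin-regulated hexokinase of muscle and fat, had a signal of 10.57, 9.83, and 6.27 on the control arrays compared with 6.61, 6.76, and 11.77 on the *ob/ob* arrays. As with *Slc2a1*, the highest array was *ob/ob* 3, and the log2 fold change of −0.51 (standard error 1.74) became −3.39 without control 3 and *ob/ob* 3. *Gpi1*, glucose-6-phosphate isomerase, was at 12.38, 12.14, and 8.90 on the control arrays compared with 9.02, 8.87, and 11.63 on the *ob/ob* arrays, a log2 fold change of −1.31 (standard error 1.18, limma unadjusted p = 0.307). Its 3 probes gave nearly the same result, with log2 fold changes from −1.31 to −1.25 and correlations between probes of at least 0.98 over the 6 arrays.

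The other hexokinases behaved differently. *Hk1*, the housekeeping hexokinase, stayed between 9.65 and 10.78 on all arrays, with a difference of 0.37 (standard error 0.43). *Hk3*, which is found mainly in myeloid cells, was at 6.18, 6.37, and 7.35 on the control arrays compared with 7.58, 7.82, and 6.16 on the *ob/ob* arrays. Here control 3 was the highest control and *ob/ob* 3 the lowest array, the mirror image of *Hk2*, and the log2 fold change was 0.55 (standard error 0.58), or 1.27 without control 3 and *ob/ob* 3.

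Phosphofructokinase is a tetramer of muscle, liver, and platelet subunits. *Pfkl* had a signal of 7.70, 7.81, and 6.90 on the control arrays compared with 6.50, 6.46, and 6.49 on the *ob/ob* arrays. Every *ob/ob* sample lay below every control, with means of 7.47 ± 0.50 (SD, n = 3) and 6.49 ± 0.02 (SD, n = 3), and the 3 *ob/ob* values were almost equal. The log2 fold change was −0.98 (standard error 0.37, limma unadjusted p = 0.0347; two-sided exact permutation test, p = 0.10, which 3 against 3 cannot go below), just short of 2-fold. It kept its sign in all 18 alternative settings, between −1.33 and −0.72, and its unadjusted p was not under 0.05 in 9 of them (limma), which include each *ob/ob* array left out and the scan as a block.

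*Pfkm*, the muscle subunit, was at 8.59, 9.26, and 11.24 on the control arrays compared with 10.60, 10.19, and 9.33 on the *ob/ob* arrays. It was highest in control 3, and the log2 fold change of 0.34 (standard error 0.75) was 1.47 without control 3 and *ob/ob* 3. *Pfkp*, the platelet subunit, had 8.14, 8.30, and 7.20 on the control arrays compared with 6.64, 6.75, and 7.43 on the *ob/ob* arrays, a log2 fold change of −0.94 (standard error 0.44, limma unadjusted p = 0.0743). The 3 subunits of 1 enzyme thus had differences of both signs, and none was called.

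The fructose-2,6-bisphosphate enzymes set the level of the main activator of phosphofructokinase. *Pfkfb3*, the isoform with the strongest kinase activity, had 9.86, 9.45, and 6.26 on the control arrays compared with 5.59, 5.46, and 9.84 on the *ob/ob* arrays, a log2 fold change of −1.56 (standard error 1.49). Control 1, control 2, and *ob/ob* 3 lay close together and well above the other 3. *Pfkfb4* showed the same split, with 6.67, 5.97, and 2.0 on the control arrays compared with 3.94, 2.02, and 8.75 on the *ob/ob* arrays. Its log2 fold change was 0.03 (standard error 1.99), and the probe was not well above background on 2 arrays. *Pfkfb2*, the heart isoform, ran from 2.25 to 5.80, mostly not well above background. *Pfkfb1*, the isoform of liver and muscle, had a log2 fold change of 0.35 (standard error 0.40).

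Of the 10 genes between aldolase and pyruvate kinase, 7 had negative differences (70.0%, compared with 57.1% of all genes) and 3 had positive ones, with a median of −0.54. *Eno1* was at 13.22, 12.75, and 11.04 on the control arrays compared with 10.79, 10.68, and 11.00 on the *ob/ob* arrays. All *ob/ob* samples lay below all controls, although control 3 exceeded *ob/ob* 3 by little. The means were 12.34 ± 1.15 (SD, n = 3) and 10.82 ± 0.16 (SD, n = 3), which is a difference of −1.52 or 2.86-fold lower (standard error 0.61, limma unadjusted p = 0.0441; two-sided exact permutation test, p = 0.10). It was negative under all 18 alternatives and lost its call under 10 of them. *Eno1* has a near-identical copy in the mouse genome, so its signal may hold that of the copy.

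*Aldoc* was at 7.92, 8.06, and 9.01 on the control arrays compared with 9.71, 8.81, and 10.12 on the *ob/ob* arrays. Its groups overlapped, since *ob/ob* 2 lay just below control 3. The means were 8.33 ± 0.59 (SD, n = 3) and 9.55 ± 0.67 (SD, n = 3), which is a difference of 1.22 or 2.33-fold higher (standard error 0.50, limma unadjusted p = 0.0487). The call was lost under 9 of 18 alternatives, and the difference stayed positive in all of them, from 0.92 to 1.60. Unlike most of the genes, *Aldoc* had nearly the same difference with and without control 3 and *ob/ob* 3, 1.22 and 1.25.

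*Aldoa*, the aldolase of most tissues and the counterpart of *Aldoc* at the same step, had 12.82, 12.45, and 10.16 on the control arrays compared with 10.80, 10.63, and 13.24 on the *ob/ob* arrays. Its log2 fold change was −0.25 (standard error 0.98), with *ob/ob* 3 as the highest array. *Tpi1*, triosephosphate isomerase, had a log2 fold change of −0.59 (standard error 0.76). *Pgk1* and *Pgam1*, the next kinase and mutase, had positive differences of 0.93 ± 0.85 and 0.39 ± 0.81 (standard error). In these genes control 3 was the lowest array, and without control 3 and *ob/ob* 3 the differences of *Pgk1* and *Pgam1* were −0.46 and −0.85.

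*Pkm*, pyruvate kinase, was at 8.53, 8.28, and 5.70 on the control arrays compared with 6.21, 5.87, and 7.77 on the *ob/ob* arrays. The groups overlapped, with control 3 as the lowest array, and the log2 fold change was −0.89 (standard error 0.90, limma unadjusted p = 0.362), or −2.17 without control 3 and *ob/ob* 3. *Pgam2* and *Eno3*, the muscle forms of the mutase and of enolase, differed by −0.98 and −0.50, with standard errors of 1.0 and 0.47.

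*Gapdh* encodes the dehydrogenase of the triose step and is often taken as a reference gene. Its brightest probe had 15.06, 14.78, and 11.48 on the control arrays compared with 11.81, 11.28, and 14.61 on the *ob/ob* arrays, a log2 fold change of −1.21 (standard error 1.26, limma unadjusted p = 0.373). By this probe, control 3 lay with *ob/ob* 1 and *ob/ob* 2, and the spread within each group was over 1 log2 unit.

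*Gapdh* was also covered by 6 more probes, all listed under the same RefSeq transcript. Its second-brightest probe gave another picture, with 12.99, 13.57, and 12.52 on the control arrays compared with 9.87, 10.11, and 10.09 on the *ob/ob* arrays. Every *ob/ob* sample lay at least 2 log2 units below every control, and control 3 and *ob/ob* 3 sat with their own groups. The means were 13.03 ± 0.53 (SD, n = 3) and 10.02 ± 0.13 (SD, n = 3), which is a difference of −3.0 (standard error 0.38, limma unadjusted p = 1.64e-04, adjusted p = 0.841; two-sided exact permutation test, p = 0.10). The value was −2.90 after scaling to the 75th percentile, −3.04 after another background correction, −3.32 without control 3 and *ob/ob* 3, and −2.89 within the shared scan.

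The sixth probe of *Gapdh* separated the groups as well, with 9.14, 9.54, and 8.72 on the control arrays compared with 7.72, 7.63, and 7.66 on the *ob/ob* arrays, a log2 fold change of −1.46 (standard error 0.34). The other 4 probes had log2 fold changes of −1.50, −0.72, −1.23, and −0.37, and their groups overlapped. All 7 values were negative, from −3.0 to −0.37, while the correlation between 2 probes over the 6 arrays ran from 0.41 to 0.99. *Gapdh* has many pseudogenes, and the place of each probe in the transcript was not analyzed here, so which probe reads the gene best was not tested.

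*Pfkfb3* showed the same contrast between its 2 probes, which are listed under different transcripts of the gene. The second probe had 7.50, 7.94, and 8.13 on the control arrays compared with 5.64, 5.68, and 5.79 on the *ob/ob* arrays. The groups did not overlap, control 3 was the highest array, and the log2 fold change was −2.15 (standard error 0.32, limma unadjusted p = 4.45e-04, adjusted p = 1.0). Both probes of *Pfkfb3* had lower signal in *ob/ob* 1 and *ob/ob* 2 than in control 1 and control 2, and they parted in control 3 and *ob/ob* 3. By normexp background correction the second probe's difference was −1.31.

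*Ldha*, which encodes the lactate dehydrogenase subunit that favors lactate formation, had 3 probes under 1 transcript. The brightest had 14.15, 13.36, and 10.21 on the control arrays compared with 11.37, 11.05, and 15.41 on the *ob/ob* arrays, a log2 fold change of 0.04 (standard error 1.50). The second had 8.66, 9.10, and 10.36 on the control arrays compared with 9.48, 9.85, and 7.34 on the *ob/ob* arrays, nearly the inverse of the first (r = −0.96 over 6 arrays). The dimmest probe separated the groups, with 8.66, 8.90, and 8.49 on the control arrays compared with 8.11, 8.04, and 8.05 on the *ob/ob* arrays, a log2 fold change of −0.62 (standard error 0.30, limma unadjusted p = 0.0821). The sign for *Ldha* thus depended on the probe, and that of the brightest probe reversed under 4 other settings besides single arrays left out.

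In *Pfkp*, the 2 probes differed in sign, at −0.94 and 0.83, with r = −0.84 over the 6 arrays. *Tpi1* had −0.59 and −0.23, with r = −0.73. *Hk1*, *Gys1*, and *Slc16a3* each had 2 probes whose fold changes lay within 0.24 of each other. Over the 49 probes of these genes that were tested, 5 were called (10.2%), compared with 3.04% of all probes, and 6 had groups that did not overlap (12.2%), compared with 7.92%. Probes of 1 gene share their target, so the 2 called *Gapdh* probes do not count as separate genes.

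**Figure D3:**
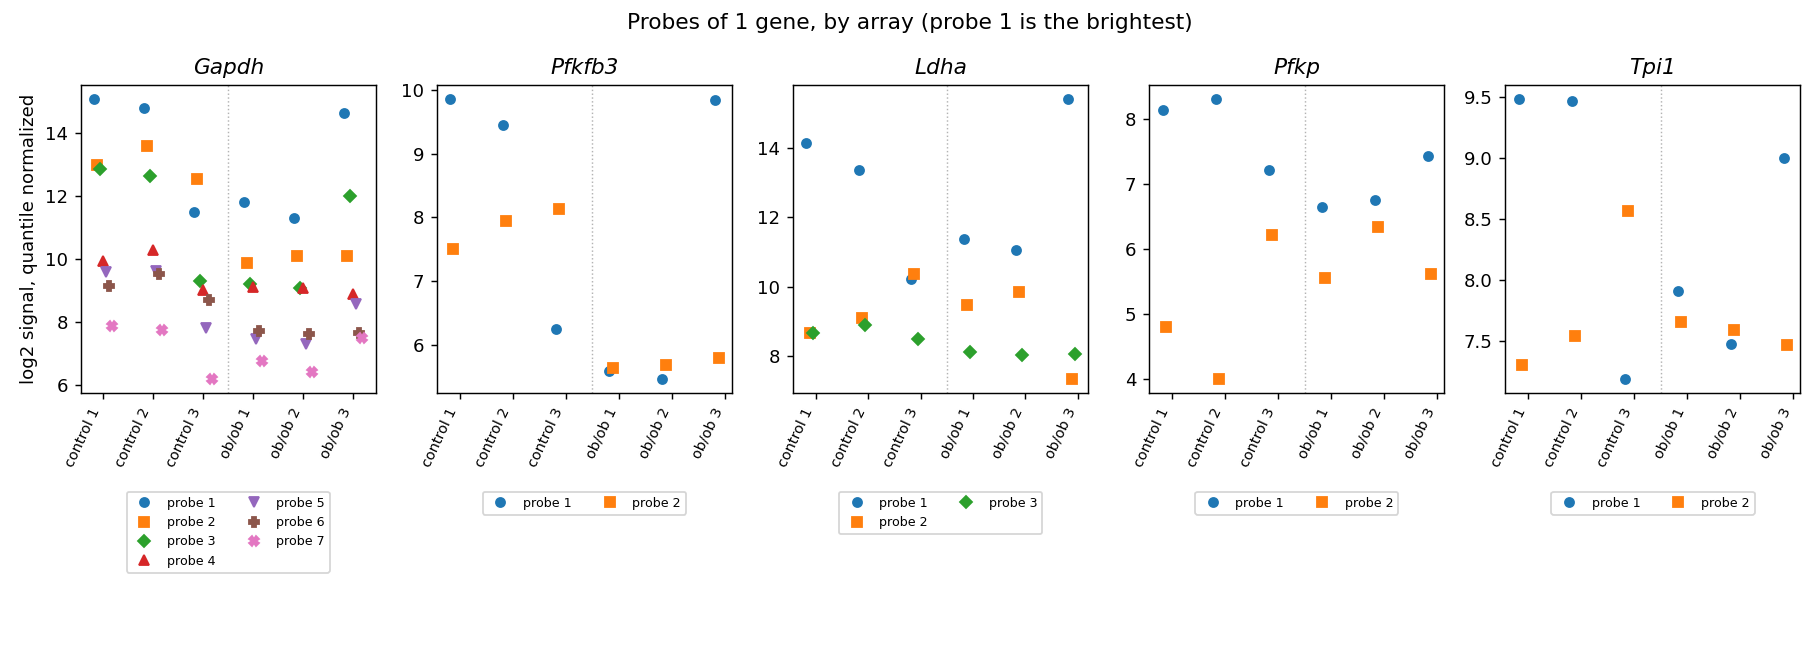
Quantile normalized log2 signal (y axis) on each of the 6 arrays (x axis) for every probe of *Gapdh*, *Pfkfb3*, *Ldha*, *Pfkp*, and *Tpi1*, with probe 1 the brightest of its gene. Probes 2 and 6 of *Gapdh*, probe 2 of *Pfkfb3*, and probe 3 of *Ldha* have all 3 controls above all 3 *ob/ob* samples, whereas the brightest probes have control 3 low and *ob/ob* 3 high.

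Lactate is exported by monocarboxylate carriers. *Slc16a1*, which encodes MCT1, had 7.46, 7.92, and 10.26 on the control arrays compared with 9.67, 10.04, and 7.40 on the *ob/ob* arrays. Control 3 was the highest and *ob/ob* 3 the lowest array, and the log2 fold change was 0.49 (standard error 0.99), or 2.13 without control 3 and *ob/ob* 3. *Slc16a3*, which encodes the lactate exporter MCT4, was at −0.06 (standard error 0.43), and *Ldhb*, the subunit that favors lactate use, at 0.10 (standard error 1.14). By their brightest probes, none of the 4 lactate genes was called.

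Among the 5 glycogen enzymes, the differences ran from −0.97 to 0.07 and none was called. *Pygl*, the liver-type glycogen phosphorylase, had 11.32, 10.77, and 10.11 on the control arrays compared with 9.25, 9.91, and 10.11 on the *ob/ob* arrays, a log2 fold change of −0.97 (standard error 0.45, limma unadjusted p = 0.0714). Its groups met at control 3 and *ob/ob* 3. *Pygm*, the muscle form, was at −0.58 (standard error 0.50). *Gys1*, glycogen synthase, and *Pgm2*, a phosphoglucomutase, differed by −0.05 and 0.07, with standard errors of 0.45 and 0.63. *Pygb*, the brain form, varied least of these, between 5.85 and 6.04 over the 6 arrays.

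*G6pdx*, the first enzyme of the pentose phosphate pathway, had 7.74, 7.29, and 5.91 on the control arrays compared with 5.94, 5.90, and 7.43 on the *ob/ob* arrays. It followed the majority, with control 3 low and *ob/ob* 3 high, and its log2 fold change was −0.56 (standard error 0.66).

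The genes most like *Slc2a4* over the 6 arrays were *Etl4*, *Cish*, *Dnajb12*, *Pcx*, and *Kazald1*, with Pearson correlations of 0.999 to 0.997 among 15870 genes well above background on all arrays. Of the glycolytic genes, *Pfkp* came closest (0.986), followed by *Gpi1* (0.942), *Pfkfb3* (0.926), and *Pygl* (0.923), and 8 of 31 (25.8%) exceeded 0.9, compared with 6.70% of all genes. At the other end were *Hk3* (−0.915) and *Pfkfb1* (−0.897). These correlations rest on 6 arrays that share the split of control 3 and *ob/ob* 3 and are descriptions only.

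Other genes of glucose metabolism were read from lists drawn up by pathway. Of 8 further glucose transporters tested, 1 was lower and 1 higher (12.5% each, compared with 1.49% and 1.69% of all genes), a single gene in each direction. *Slc2a5*, which encodes the fructose transporter GLUT5, had 7.92, 7.57, and 5.78 on the control arrays compared with 5.21, 5.43, and 5.62 on the *ob/ob* arrays, a log2 fold change of −1.67 (standard error 0.61, limma unadjusted p = 0.0312) without overlap. *Slc2a13*, a proton and myoinositol cotransporter, was higher by 1.24 (standard error 0.46, limma unadjusted p = 0.0338) and was well above background on 5 arrays.

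Of 19 further glycolytic and lactate genes, 14 had negative differences (73.7%, compared with 57.1% of all genes), with a median of −0.20. None was called, and 0 had an unadjusted p under 0.05 (limma). The lowest p values belonged to *Bsg*, the chaperone of the lactate carriers (−0.74), *Hkdc1*, a hexokinase relative (0.57), and *Ldhd*, the D-lactate dehydrogenase (−0.82). Over 19 glycogen genes the median was 0.23, and *Pgm5*, a phosphoglucomutase relative (0.93), and *Phka2*, a phosphorylase kinase subunit (−0.91), were not called.

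The pentose phosphate list (12 genes) and the gluconeogenesis and glyceroneogenesis list (10 genes) each had 0 calls and 0 genes with an unadjusted p under 0.05 (limma), with medians of −0.46 and −0.53. *Tkt*, transketolase, had a log2 fold change of −2.45 (standard error 1.11, limma unadjusted p = 0.0674), with *Taldo1* at −1.03 and *Sord* at −0.71. *Pcx*, pyruvate carboxylase, had −2.82 (standard error 1.28, limma unadjusted p = 0.0677), with *G6pc3* at −1.25 and *Gpd1*, the glycerol-3-phosphate enzyme, at −1.75. In *Tkt*, *Pcx*, and *Gpd1*, control 3 lay below *ob/ob* 3, as it did in *Slc2a4*.

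Among 19 regulators of glucose use, 1 was lower and 1 higher (5.26% each, compared with 1.49% and 1.69% of all genes), a single gene in each direction. *Irs1*, the insulin receptor substrate, had 7.83, 8.22, and 7.35 on the control arrays compared with 6.71, 7.19, and 6.10 on the *ob/ob* arrays. The groups did not overlap, and the log2 fold change was −1.14 (standard error 0.43, limma unadjusted p = 0.0366). *Pdk3*, a pyruvate dehydrogenase kinase, was higher by 1.66 (standard error 0.52), or by 1.16 after scaling to the 75th percentile. It was well above background on only 3 arrays and low on all, with 2.38, 2.51, and 4.05 on the control arrays compared with 4.65, 4.75, and 4.50 on the *ob/ob* arrays. Such a gene can enter the test through the group where it is high, so the *Pdk3* call was not independent of the detection filter. Of 14 hypoxia-inducible factor targets outside glycolysis, 11 had negative differences (78.6%, compared with 57.1% of all genes). *Vegfa*, the endothelial growth factor, was the single gene called lower (7.14%, compared with 1.49% of all genes). Its signal was 8.02, 8.56, and 7.97 on the control arrays compared with 6.77, 6.76, and 6.05 on the *ob/ob* arrays (log2 fold change −1.66, standard error 0.37, limma unadjusted p = 0.00391). Unlike most glycolytic genes, *Irs1* and *Vegfa* were lowest in *ob/ob* 3.

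Markers of other cells moved with the split of the glycolytic genes. Skeletal muscle, which lies next to the interscapular pad and is rich in glycolytic enzymes, was followed with 15 markers. Their mean signal was 9.64, 10.04, and 7.64 on the control arrays compared with 6.06, 5.95, and 10.99 on the *ob/ob* arrays. The fast myosin *Myh4* ran from 6.96 in *ob/ob* 2 to 14.96 in control 2. It was 11.16 in control 3 and 14.25 in *ob/ob* 3. As in *Hk2*, *Pfkfb3*, and *Pkm*, control 1, control 2, and *ob/ob* 3 were the high arrays. Of the 15 muscle markers, 13 had negative differences (86.7%, compared with 57.1% of all genes). A single marker, *Mylpf*, was called higher (1.19), which is 6.67% of the list, compared with 1.69% of all genes. The part of muscle in the differences of the glycolytic genes was not tested.

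General adipocyte markers had the same 3 high and 3 low arrays in another order, with a mean of 11.80, 11.59, and 9.45 on the control arrays compared with 9.92, 9.63, and 11.45 on the *ob/ob* arrays. Endothelial and erythrocyte markers had these same high arrays as well. Endothelial markers had 9.07, 9.01, and 7.32 on the control arrays compared with 6.59, 6.46, and 8.21 on the *ob/ob* arrays. Erythrocyte markers had 9.09, 8.04, and 7.19 on the control arrays compared with 6.78, 6.40, and 9.65 on the *ob/ob* arrays. White adipocyte markers stayed between 6.50 and 7.25, and lymphocyte markers ran the other way, highest in *ob/ob* 2 (7.60) and lowest in *ob/ob* 3 (6.52). Macrophage and myeloid markers ran from 6.73 to 6.91 on the control arrays and from 6.96 to 8.15 on the *ob/ob* arrays. Brown adipocyte markers showed a median of −2.20 for the log2 fold change. *Zic1*, *Elovl3*, and *Ppargc1a* were called lower (30.0%, compared with 1.49% of all genes) and 0 were called higher. *Elovl3*, well above background on only 3 arrays, had 9.20, 9.35, and 5.48 on the control arrays compared with 3.30, 3.92, and 3.29 on the *ob/ob* arrays. A gene can pass the detection filter through the group where it is high, so the *Elovl3* call was not independent of the filter. Elsewhere, the calls were single genes. *Trem2* was called higher among 11 macrophage and myeloid markers (2.25, 9.09% of the list) and *Ms4a1* higher among 9 lymphocyte markers (1.16, 11.1%). *Retn* was called lower among 8 white adipocyte markers (−1.98, 12.5%). Over all genes, 1.69% were called higher and 1.49% lower. No general adipocyte, endothelial, or erythrocyte marker was called. The part of any of these cells in the glycolytic differences was not tested.

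**Figure D4:**
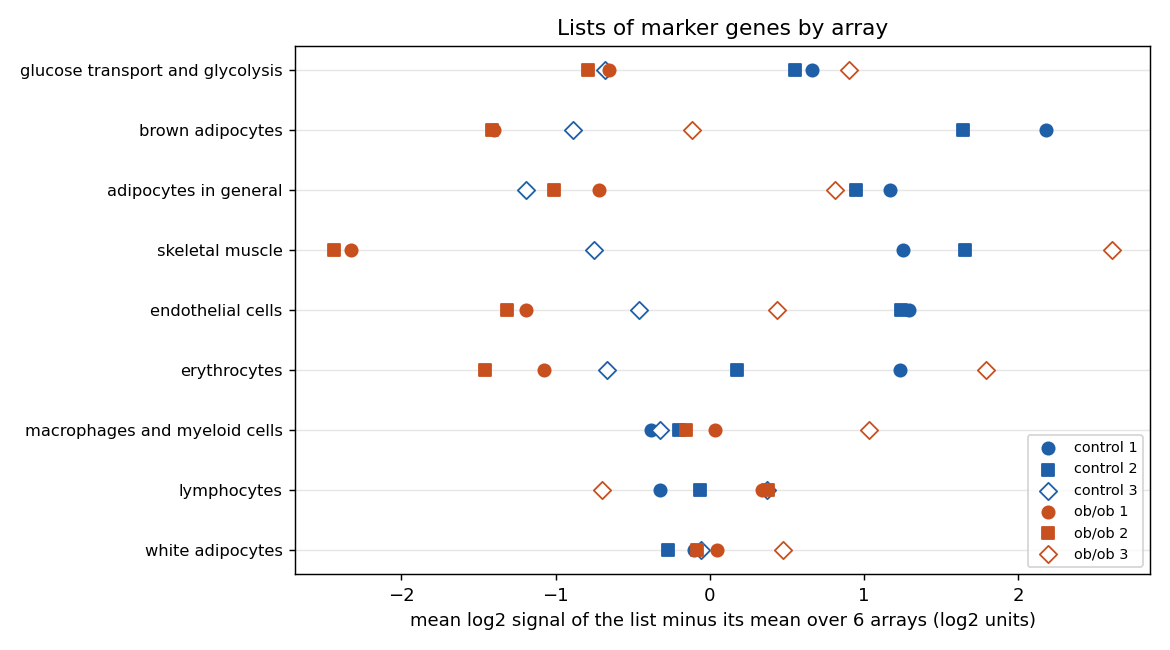
Mean log2 signal of each marker list and of the 33 glycolytic genes on each of the 6 arrays, as the difference from the list's own mean over the arrays (x axis, log2 units). Before centering, the glycolytic genes had 9.31, 9.20, and 7.97 on the control arrays compared with 7.99, 7.86, and 9.55 on the *ob/ob* arrays. Their highest arrays, control 1, control 2, and *ob/ob* 3, are also the highest for skeletal muscle, general adipocyte, brown adipocyte, endothelial, and erythrocyte markers. For brown adipocyte markers, however, *ob/ob* 3 (8.33) lay nearer to control 3 (7.55) than to control 2 (10.08).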

How the data were processed

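RNA from 3 control and 3 *ob/ob* samples of iBAT was hybridized to 1 single-dye Agilent array each, with groups and replicate numbers as the labels give them. The authors deposited, for each array, the intensity of every spot from Agilent Feature Extraction (version 11.0.1.1), background corrected within the array and not normalized between arrays. A second deposited table holds log2 values that the authors had quantile normalized, and it served as an alternative. RefSeq accessions named 27234 of 28684 RefSeq probes (94.9%) by the annotation of GRCm38.p6.

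Spots with an outlier flag were left out (104 probes were lost), replicate spots were averaged as log2 values, and the arrays were quantile normalized. Quantile normalization gives all arrays 1 distribution, so only relative changes are seen. Probes well above background on at least 3 of 6 arrays, with at least 0.5 of their spots, were tested with limma (version 3.58.1, R version 4.3.3), two-sided, with Benjamini-Hochberg adjustment. No spot was saturated, and the number of arrays limits the precision. The code was tested on simulated data. Python 3.11.15 with matplotlib 3.10.9, numpy 2.4.6, and pandas 2.3.3 made the tables and figures.

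The 34 genes, the further lists, the rule for the genes named, and the alternatives were chosen with earlier results of these data known. Full values are given for genes with an unadjusted p under 0.05, without overlap, with at least a 2-fold difference, with disagreeing probes, or at an entry step, and of the further lists the called genes or else the 3 with the lowest p are named. A gene that this rule names is not reported here. *Aldoa*, *Hk3*, *Pfkfb4*, *Pygl*, *Slc16a1*, and *G6pdx* were given in full after their values were seen. Alternatives were scaling to the 75th percentile, normexp background correction (offset 50), the authors' values, other detection filters, the methods' t-test, limma with trend and robust estimation, blocks for scan and replicate number, the mean over probes, and arrays left out.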

Additional observations from a re-analysis of the deposited data

How the results depend on the processing

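The count of the 33 genes called, 2 in all, was 0 after scaling to the 75th percentile and under the methods' t-test. It was also 0 under limma with trend and robust estimation and with the replicate block, and 1 with the scan as a block. Without control 3 and *ob/ob* 3 it was 22, 18 lower and 4 higher, where 22.3% of all genes were called lower and 15.6% higher. Those 2 arrays were left out because of their values, so these calls are not a test. The count ran from 0 to 8 as single arrays were left out (8 without control 3, 5 without *ob/ob* 3, 1 without *ob/ob* 2, and 0 without any other). The calls over all probes rose as well, to 1771 higher and 1175 lower without control 3 and to 1494 and 953 without *ob/ob* 3. The count without overlap, 2, was 1 after scaling to the 75th percentile and with the authors' values. It was 29 without control 3 and *ob/ob* 3, and from 2 to 12 as single arrays were left out (12 without control 3, 11 without *ob/ob* 3). Groups of fewer arrays separate more easily by this measure, and the share of all genes in these settings is not given here. The median of −0.25 was −1.41 without control 3 and *ob/ob* 3 and ran from −1.04 (without control 3) to 0.12 (without *ob/ob* 2).

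Over all probes, 598 were higher and 478 lower. Scaling to the 75th percentile gave 115 and 303, normexp 128 and 310, and the methods' t-test 327 and 313. The replicate block gave 139 and 220, and the scan block 35 and 113. Leaving out control 3 and *ob/ob* 3 gave 5466 and 6450, which is no test because these arrays were left out for their values. Detection on all 6 arrays gave 394 higher. As single arrays were left out, the counts ran from 109 to 1771 higher and from 172 to 1175 lower. Scaling to the 75th percentile moved the median of all probes from −0.07 to −0.33 and the share of called probes that were higher from 55.6% to 27.5% (normexp, 29.2%).

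*Ldha* changed sign after scaling to the 75th percentile (−0.26), with the scan block (−0.81), without control 3 and *ob/ob* 3 (−2.60), and as the mean of its probes (−0.36). With single arrays left out, *Ldha* ran from −1.49 to 0.84, *Slc2a1* from −2.15 to 0.62, *Hk2* from −2.12 to 0.38, and *Pfkm* from −0.21 to 1.12, and each changed sign. Of 252 alternative values for the 14 genes followed, 199 kept their sign and their side of the threshold and 14 changed sign. The replicate numbers did not pair the samples (r = −0.78, −0.66, and −0.85 between the deviations of same-numbered samples), so the block result is given only here. Over all probes tested, the deviations of *ob/ob* 3 ran with those of control 1 (r = 0.87) and control 2 (0.68). Those of control 3 ran with *ob/ob* 1 (0.77) and *ob/ob* 2 (0.83). Control 1 with *ob/ob* 2 had −0.85, and control 2 with *ob/ob* 1 had −0.62. With 3 arrays a group, a difference smaller than about the spread between arrays was not detectable for genes such as *Hk2*.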
